A study of Homo sapiens with 4 samples.

Results

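A set of 10 genes that define or accompany intestinal epithelial identity were read in HCT116 cells after knockdown of the long noncoding RNA LINC00152: CDX1, CDX2, HNF4A, KLF4, KLF5, SOX9, ELF3, EHF, CEACAM5 and CEACAM6. They were taken by symbol and are 10 of 19974 gene rows in the deposited expression tables. HCT116 is an established human colon cancer line. Cells were transfected for 36 h with 100 nM of a non-targeting control siRNA (control) or of an siRNA against LINC00152 (si-LINC00152), in DMEM with serum, and total RNA was sequenced from 2 biological replicates a group, 4 libraries in all. The study asked which genes depend on LINC00152 in colon cancer cells. No gene row under the symbols LINC00152 or CYTOR was found, so the knockdown was not checked in these libraries.

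Intestinal epithelium renews from stem cells at the crypt base, and its daughter cells become absorptive enterocytes or secretory cells as they move up the crypt. CDX1 and CDX2 are caudal-type homeobox factors that set intestinal identity, and HNF4A is a nuclear receptor that drives enterocyte genes together with CDX2. KLF4 is a zinc-finger factor of differentiated cells and KLF5 its relative in proliferating crypt cells. SOX9 is an HMG-box factor of crypt base cells and Paneth cells, ELF3 and EHF are epithelium-specific ETS factors, and CEACAM5 (carcinoembryonic antigen) and CEACAM6 are membrane-anchored adhesion proteins often abundant in colorectal tumours.

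Values are FPKM, fragments per kilobase of transcript scaled to the fragments of the library, which can be compared between genes because they are set per length. The number of reads behind each value is unknown. A gene counted as expressed when it reached 1 FPKM in at least 2 libraries, which 11222 of 19974 rows did (56.2%). Each library had a value above 0 for 14589 to 14686 genes, the FPKM sums were 424754 to 534311, and no pair of libraries had a Spearman correlation across genes outside 0.981 to 0.985. The first principal component (54.4% of the variance) separated the libraries numbered 1 from those numbered 2, and the second (28.9%) separated the groups.

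Of the 10 genes, 7 were expressed in HCT116 cells and 3 were listed at 0 in every library. ELF3 had the highest level, followed by SOX9, KLF4, KLF5, EHF, CDX2 and HNF4A, and this order of mean FPKM was the same in control and in si-LINC00152 cells. Over the 4 libraries ELF3 ranged from 43.5 to 60.8 FPKM and SOX9 from 35.1 to 45.3 FPKM, so these neighbours overlapped. SOX9 also overlapped KLF4 (22.8 to 37.9 FPKM), and EHF (9.77 to 12.7 FPKM) overlapped CDX2 (8.29 to 10.4 FPKM). The ranges of KLF4 and KLF5, of KLF5 and EHF, and of CDX2 and HNF4A did not overlap. For scale, the median of all expressed genes was 9.88 FPKM, and ELF3 stood at percentile 93.3 of all rows, CDX2 at 70.9 and HNF4A at 45.8.

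**Figure D1:**
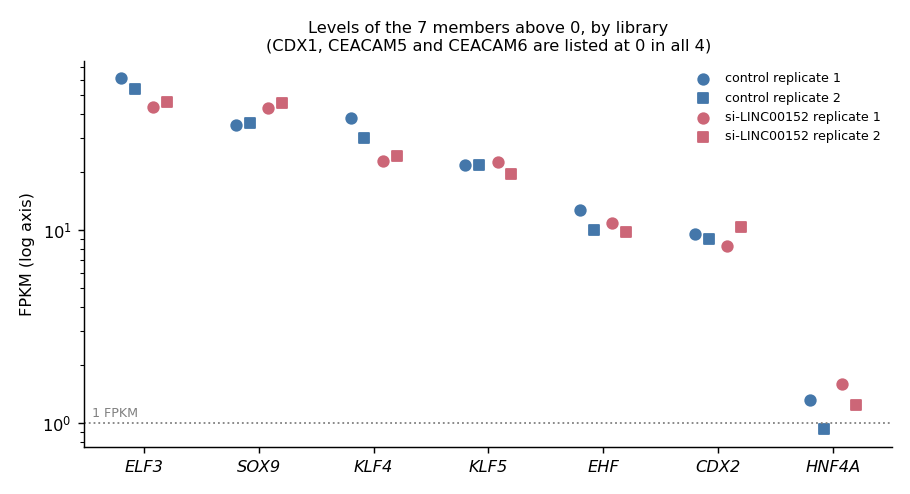
FPKM on a log axis of the 7 expressed genes in the 2 control and 2 si-LINC00152 libraries, with 1 point per library. ELF3 and SOX9 sit highest and HNF4A lies near 1 FPKM; CDX1, CEACAM5 and CEACAM6, at 0 in all 4 libraries, cannot be shown on this axis.

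CDX1, CEACAM5 and CEACAM6 were listed at 0 in control 1, control 2, si-LINC00152 1 and si-LINC00152 2, and no comparison of them was possible. A listed 0 was common: 4247 rows (21.3%) were at 0 in all 4 libraries. A listed 0 in some of the libraries need not mean absent RNA, because 6 genes above 20 FPKM in some library were listed at 0 in another. CDX1, CEACAM5 and CEACAM6 were at 0 in all 4, so those 6 genes do not speak for them. Whether their RNA was absent was not tested. CEACAM5 (chr19:41708585-41729798, GRCh38) and CEACAM6 (chr19:41750977-41772208) are neighbours on the same strand, and part of their sequence is not unique to them. Of all 50-base words in 1 reference transcript of CEACAM5 19.97% also occur in transcripts of other genes, mostly AC243967.1, a protein-coding model that overlaps both genes, and for CEACAM6 the share was 7.92%. How the deposited values treated such reads is not given in the sources used here. The CDX1 transcript (chr5:150166795-150184558) shares no such word with another gene.

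No gene of the 7 passed Benjamini-Hochberg adjusted p of 0.05 in limma's moderated test over all 11222 expressed genes, and all 7 had an adjusted p of 0.9996. Among all expressed genes, 2 (0.0178%) passed. At an unadjusted p under 0.05 KLF4 alone of the 7 passed, against 492 (4.38%) of all expressed genes. None of the 7 passed the combined threshold of unadjusted p under 0.05 and a fold change above 1.5, which 0.597% of expressed genes passed with a higher and 1.06% with a lower level in si-LINC00152. An exact permutation test of 2 against 2 libraries cannot give a two-sided p under 0.333, so none is given for single genes. The replicates are biological ones of a single cell line, so the p-values speak for this line alone. In bulk RNA, fewer cells of a type and less RNA per cell cannot be told apart.

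KLF4, the factor of differentiated epithelial cells, was at 37.9 FPKM in control 1, 29.8 in control 2, 22.8 in si-LINC00152 1 and 24.0 in si-LINC00152 2. Both si-LINC00152 libraries were below both controls. The group means were 33.9 ± 5.74 and 23.4 ± 0.846 FPKM (SD, n = 2). The difference, si-LINC00152 minus control on the log2(FPKM + 1) scale, was -0.51 (SE 0.18, 95% interval -0.90 to -0.11, limma unadjusted p = 0.0183, adjusted p = 0.9996). It was -0.71 between the libraries numbered 1 and -0.30 between those numbered 2. The call at this unadjusted threshold rested on single libraries. Without control 1 the difference was -0.34 (limma unadjusted p = 0.183), without si-LINC00152 1 it was -0.47 (limma unadjusted p = 0.0514), and without control 2 it was -0.67, which then passed a fold of 1.5.

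KLF5, the related factor of proliferating crypt cells, was at 21.7 and 21.5 FPKM in the controls and at 22.5 and 19.5 FPKM in si-LINC00152 cells. The groups overlapped, and the same-numbered pairs differed in opposite directions (0.05 and -0.14). The fitted log2 difference was -0.05 with an interval of -0.42 to 0.33 (SE 0.17, limma unadjusted p = 0.786). A change in KLF5 anywhere between these bounds remains compatible with the values. Within a library, the ratio of KLF4 to KLF5 FPKM was 1.75 in control 1 and 1.38 in control 2, and 1.02 and 1.23 in si-LINC00152 1 and 2. Both si-LINC00152 ratios were below both control ratios, though the step was larger in the first pair (-0.78 on the log2 scale) than in the second (-0.17).

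SOX9, the crypt base factor, was at 35.1 FPKM in control 1 and 35.7 in control 2, against 42.7 in si-LINC00152 1 and 45.3 in si-LINC00152 2. Both si-LINC00152 libraries were above both controls, and the means were 35.4 ± 0.460 and 44.0 ± 1.85 FPKM (SD, n = 2). The log2 difference was 0.31 (SE 0.16, 95% interval -0.05 to 0.67, limma unadjusted p = 0.0865), and it was close in the same-numbered pairs, 0.28 and 0.34. The interval includes 0, so the higher level was not distinguished from the spread that this fit, which has no replicate block, assigns to genes of this level. With a replicate block the limma unadjusted p was 0.0196 and the adjusted p 0.209.

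ELF3, the epithelium-specific ETS factor and the most abundant of the 7, was at 60.8 and 53.9 FPKM in control 1 and 2 and at 43.5 and 45.8 FPKM in si-LINC00152 1 and 2. All si-LINC00152 values lay below all control values, with means of 44.6 ± 1.64 and 57.3 ± 4.89 FPKM (SD, n = 2). The log2 difference was -0.35 (SE 0.17, 95% interval -0.72 to 0.02, limma unadjusted p = 0.0606), from -0.47 in the first pair and -0.23 in the second. ELF3 (chr1:202007945-202017188) shares 8.66% of the 50-base words of 1 reference transcript with other genes, nearly all of them with AL691482.3, a sense transcript inside the ELF3 locus, so a small part of its value is uncertain.

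EHF, the other epithelium-specific ETS factor, was at 12.7 and 9.96 FPKM in the controls and at 10.8 and 9.77 FPKM in si-LINC00152 cells. The groups overlapped, and the difference was -0.12 (SE 0.19, 95% interval -0.55 to 0.31, limma unadjusted p = 0.544). Both pairs had the lower value in si-LINC00152 cells (-0.21 and -0.02), but without control 1 the fitted difference turned to 0.04. The ratio of ELF3 to EHF within a library was 4.78 and 5.41 in the controls and 4.01 and 4.69 in si-LINC00152 cells.

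CDX2, the homeobox factor of intestinal identity, was at 9.52 and 8.97 FPKM in the controls and at 8.29 and 10.4 FPKM in si-LINC00152 cells. The si-LINC00152 libraries held both the lowest and the highest value, so the groups overlapped fully. Its difference was 0.01 (SE 0.19, 95% interval -0.42 to 0.43, limma unadjusted p = 0.971), and the pairs went in opposite directions (-0.18 and 0.19). HNF4A was at 1.31 and 0.927 FPKM in the controls and at 1.58 and 1.24 FPKM in si-LINC00152 cells, near the expression limit. Its groups overlapped, although the si-LINC00152 value was the higher one in both pairs (0.16 and 0.22). The fitted difference was 0.19 (SE 0.21, 95% interval -0.28 to 0.66, limma unadjusted p = 0.390). It ran from 0.06 without control 2 to 0.32 without control 1, and was also 0.32 with a pseudocount of 0.1.

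**Figure D2:**
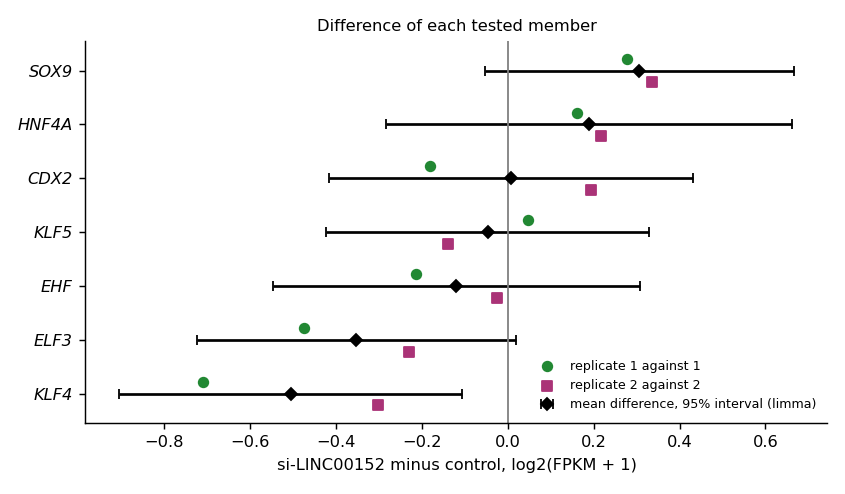
Difference in log2(FPKM + 1), si-LINC00152 minus control, for the 7 expressed genes: points give the 2 same-numbered pairs and bars the fitted difference with its 95% interval. The KLF4 interval, -0.90 to -0.11, is the only one that leaves out 0, and CDX2 and KLF5 have 1 pair on each side of 0.

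Across the same-numbered pairs, SOX9 and HNF4A (2 of 7) were higher and KLF4, ELF3 and EHF (3 of 7) were lower in si-LINC00152 in both. Among all expressed genes 35.6% were higher and 27.3% lower in both pairs. In 1 of 7 genes (SOX9) the groups did not overlap and si-LINC00152 was higher, against 16.5% of expressed genes, and in 2 of 7 (KLF4 and ELF3) they did not overlap and si-LINC00152 was lower, against 13.9%. Nothing particular to the 7 is read from these counts. Their median difference was -0.05, against 0.02 over all expressed genes.

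Ratios between genes of the same library are not changed by a size factor, though quantile normalization can change them. From the unscaled values 6 were computed after the levels had been seen, as a description with no test. SOX9 to KLF4 was 0.924 in control 1, 1.198 in control 2, 1.87 in si-LINC00152 1 and 1.89 in si-LINC00152 2. Control cells thus held about equal FPKM of the crypt base and the differentiation factor, and si-LINC00152 cells held more SOX9 than KLF4 in both libraries. The log2 step of this ratio was 1.02 in the first pair and 0.66 in the second. SOX9 to ELF3 moved from 0.577 and 0.663 in the controls to 0.983 and 0.990 in si-LINC00152 cells. SOX9 to KLF5 was 1.61 and 1.66 in the controls and 1.90 and 2.33 in si-LINC00152 cells, whereas KLF4 to ELF3 ran from 0.624 and 0.554 to 0.525 and 0.524. None of the 6 ratios overlapped between the groups, but each holds SOX9, KLF4 or ELF3, whose own groups did not overlap. For SOX9 to KLF4 and SOX9 to ELF3 the lack of overlap followed from those levels alone. The 6 ratios share numerators and denominators, and other pairs of genes were not computed. Nothing is therefore read from this count.

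**Figure D3:**
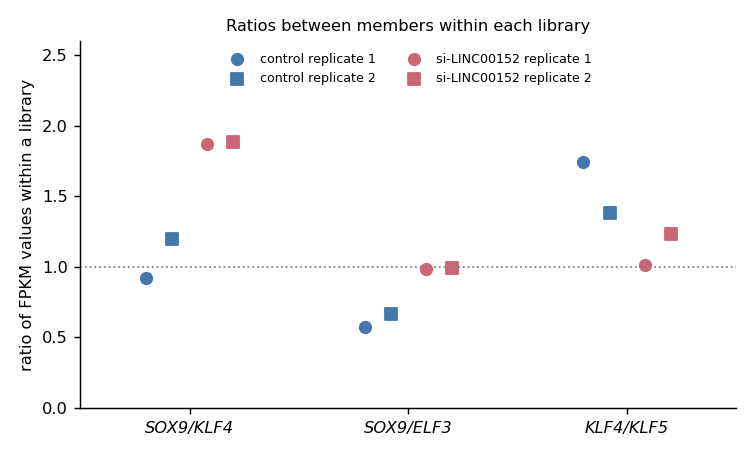
Ratios of FPKM between genes of the same library (linear axis from 0) for SOX9 to KLF4, SOX9 to ELF3 and KLF4 to KLF5, with 1 point per library and a dotted line at 1. SOX9 to KLF4 moves from 0.924 and 1.198 in the controls to 1.87 and 1.89 in si-LINC00152 cells.

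The wider intestinal programme was mostly low in HCT116 cells. Of 27 other transcription factors of intestinal and endodermal epithelium 9 were expressed, 14 were below the limit and 4 (GATA4, ISX, NEUROG3 and ASCL2) were at 0 in all libraries. HES1, a Notch target that holds back secretory fate, had the highest level, 24.0 and 26.0 FPKM in the controls and 21.99 and 31.5 FPKM in si-LINC00152 cells. FOXA3, a forkhead factor of endoderm, was at 4.27 to 5.90 FPKM and OVOL1, a zinc-finger factor of epithelia, at 4.48 to 5.37 FPKM. No factor of this list had an unadjusted p under 0.05. All 9 fitted differences were above 0 without scaling, with a median of 0.08, but 8 were with size factors and 7 with quantile normalization. Without scaling, 6085 of all 11222 expressed genes also had a difference above 0.

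Of 31 absorptive cell genes 5 were expressed, 12 were below the limit and 14 were at 0 throughout, among them the brush border enzymes ALPI and SI and the keratin KRT20. The 3 with the highest levels were EZR (ezrin, a linker of membrane and actin), at 404 to 449 FPKM, CA2 (a carbonic anhydrase), at 15.9 to 18.2 FPKM, and DPP4 (a brush border peptidase), at 4.97 to 7.41 FPKM. None of the 5 had an unadjusted p under 0.05, with 2 differences above and 3 below 0. Of 20 secretory cell genes none was expressed by the same limit, and 10 were at 0 throughout. The highest were REP15, which reached 1.00 FPKM in si-LINC00152 1 only, PYY, a gut peptide hormone, and LYZ, the lysozyme of Paneth cells, both at most 0.601 FPKM in any library.

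Of 14 crypt base stem cell genes 9 were expressed, 3 were below the limit, and OLFM4 and SMOC2 were at 0 throughout. LGR5 was among those below the limit, at 0 in both controls and in si-LINC00152 2 and at 0.0143 FPKM in si-LINC00152 1. CD44, a hyaluronan receptor, was at 71.0 to 87.4 FPKM and BMI1, a Polycomb protein, at 15.6 to 20.8 FPKM. EPHB2, an ephrin receptor of crypt base cells, was at 7.59 and 7.19 FPKM in the controls and at 9.57 and 10.3 FPKM in si-LINC00152 cells. Its groups did not overlap, and its difference was 0.38 (limma unadjusted p = 0.0597, adjusted p = 0.9996), or 0.36 with size factors (limma unadjusted p = 0.0471). No gene of this list passed the unadjusted threshold without scaling, 6 differences were above and 3 below 0, and the median was 0.07.

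**Figure D4:**
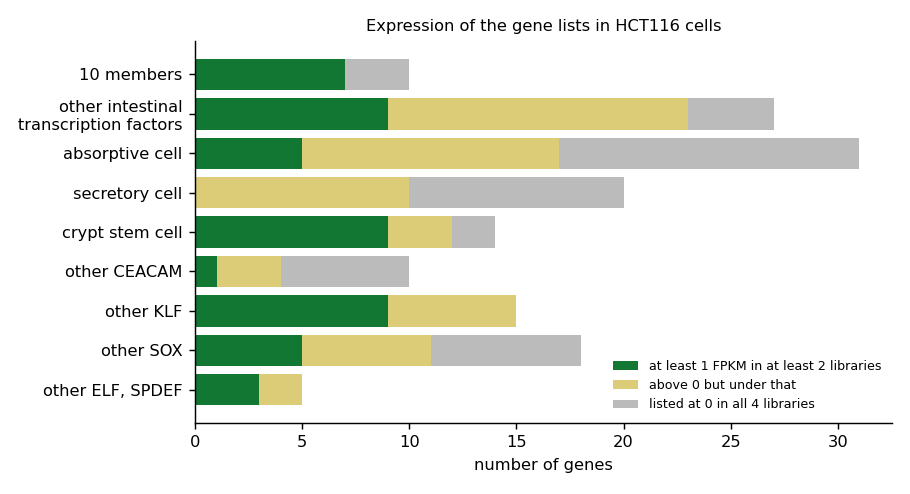
Number of genes in each list that were expressed (at least 1 FPKM in 2 libraries), listed below that limit, or at 0 in all 4 libraries. The secretory list has no expressed gene and the absorptive list 5 of 31, while 7 of the 10 genes described here were expressed.

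Family relatives of the 10 genes were read as well. Among 10 other CEACAM genes only CEACAM19 was expressed, at 2.48 and 2.93 FPKM in the controls and 3.78 and 3.58 FPKM in si-LINC00152 cells (log2 difference 0.34, limma unadjusted p = 0.116). CEACAM1 and CEACAM16 stayed below 0.430 FPKM, and 6 others (CEACAM3, CEACAM4, CEACAM7, CEACAM8, CEACAM18 and CEACAM21) were at 0 in all 4 libraries. CEACAM5 and CEACAM6 were therefore not alone in the family at 0. Of 5 other genes of the wider ETS family 3 were expressed, ELF4, ELF1 and ELF2, each between 5.76 and 9.72 FPKM, and none had an unadjusted p under 0.05.

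Of 15 other KLF genes 9 were expressed, and KLF6 had an unadjusted p under 0.05. KLF6, a broadly expressed early-response factor, was at 19.2 and 13.97 FPKM in the controls and at 29.8 and 19.8 FPKM in si-LINC00152 cells. Both si-LINC00152 libraries lay above both controls, with a log2 difference of 0.54 (SE 0.23, limma unadjusted p = 0.0418, adjusted p = 0.9996). With 1 library left out it ranged from 0.26 to 0.83. It was 0.33 without control 2 (limma unadjusted p = 0.197) and 0.26 without si-LINC00152 1 (limma unadjusted p = 0.331), but 0.76 without control 1 (limma unadjusted p = 0.00255) and 0.83 without si-LINC00152 2 (limma unadjusted p = 0.00143). KLF6 also missed the threshold with no low-value filter (limma unadjusted p = 0.0993), with quantile normalization (limma unadjusted p = 0.0561) and without the variance trend (limma unadjusted p = 0.0537). KLF2, a factor known from endothelial and lymphoid cells, had the highest level of the family, 127 and 149 FPKM in the controls and 158 and 243 FPKM in si-LINC00152 cells (difference 0.51, limma unadjusted p = 0.0569). KLF2 rested on single libraries and on scaling: its difference was 0.81 without si-LINC00152 1 (limma unadjusted p = 0.00154), 0.20 without si-LINC00152 2 (limma unadjusted p = 0.428) and 0.60 with quantile normalization (limma unadjusted p = 0.00549). KLF10, a TGF-beta response gene, was at 75.5 and 66.1 FPKM and at 79.7 and 83.9 FPKM. KLF4, lower in si-LINC00152 libraries, thus differed in sign from the 3 relatives with the highest levels, a difference between genes that was not tested. Of the 9 relatives 3 had a difference below 0. In 1 of the 9 si-LINC00152 lay below control with no overlap, as in KLF4, and in 3 it lay above. Among all expressed genes these shares were 13.9% and 16.5%.

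Of 18 other SOX genes 5 were expressed, and all 5 differences were above 0, also with size factors and with quantile normalization. Among all expressed genes 6085 of 11222 differences were above 0 without scaling. SOX12, a SOXC-group factor, was at 19.1 and 19.8 FPKM in the controls and at 26.9 and 25.2 FPKM in si-LINC00152 cells. Its groups did not overlap (log2 difference 0.40, SE 0.16, limma unadjusted p = 0.0349, adjusted p = 0.9996), but leaving out any 1 library took its unadjusted p above 0.05, with differences of 0.35 to 0.45. SOX4, of the same group, was at 33.6 and 30.9 FPKM and at 44.6 and 37.6 FPKM (difference 0.34, limma unadjusted p = 0.0784). SOX13 was at 7.91 and 7.08 FPKM and at 8.08 and 8.31 FPKM. In 4 of these 5 genes, as in SOX9, si-LINC00152 lay above control with no overlap; the median difference of the 5 was 0.34, against 0.02 over all expressed genes, and 16.5% of expressed genes had this pattern.

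**Figure D5:**
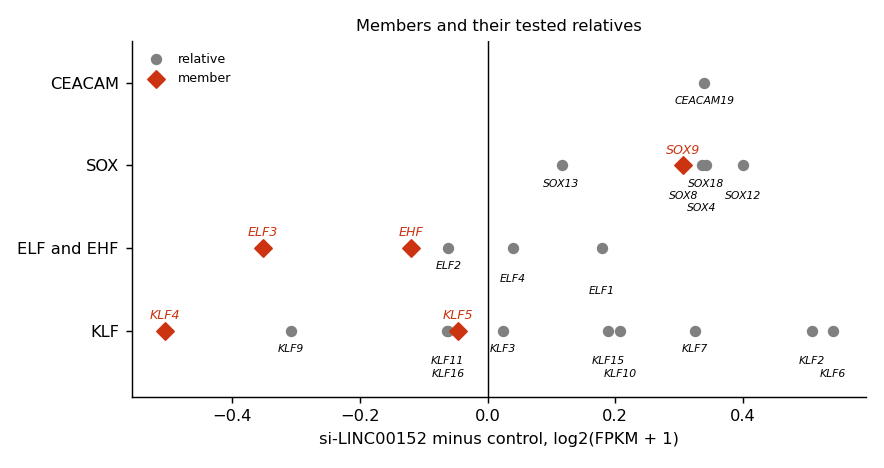
Fitted difference in log2(FPKM + 1), si-LINC00152 minus control, of the expressed KLF, ELF, SOX and CEACAM genes, 1 point per gene and no error shown. Red diamonds are genes of the 10 and grey points their relatives; KLF4 at -0.51 lies at the low end of its family and KLF6 at 0.54 at the high end, while SOX9 at 0.31 lies among SOX relatives that are all above 0.

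The levels of general epithelial markers are given beside KLF4 and ELF3. All 7 expressed markers of a list of 8 (EPCAM, CDH1, KRT8, KRT18, KRT19, CLDN4, CLDN7 and TJP1) had a difference below 0, 6 of them in both pairs, with a median of -0.24 and none at an unadjusted p under 0.05. Over all expressed genes 5137 of 11222 differences were below 0, and 27.3% of genes were lower in both pairs. With quantile normalization 5 of 7 were below 0 and the median was -0.04. The summed level of the markers was 3392 and 3940 FPKM in the controls and 2699 and 3349 FPKM in si-LINC00152 cells, so the groups did not overlap, by a margin of 3392 against 3349. The keratins weigh most in this sum, with means over the 4 libraries of 953 (KRT8), 673 (KRT18) and 1098 FPKM (KRT19). Markers of blood, endothelial, stromal, muscle and liver cells, 13 in all, summed to 7.61 to 9.02 FPKM in every library, almost all of it COL1A1 (7.02 to 7.98 FPKM), and PTPRC and DCN were at 0. The part of these markers in the KLF4 and ELF3 differences was not tested.

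The study examined several microRNAs as partners of LINC00152, among them miR-185-3p. The seed match of miR-185-3p was sought in the 3′-UTRs of the 10 genes, 1 reference transcript each. Matches to the other microRNAs of the study were not searched for, so nothing is said of them for any of the 10 genes. A microRNA pairs with a target chiefly through its seed, bases 2 to 8, shown in capitals in the mature sequence (RefSeq, GRCh38.p14, chr22:20033188-20033209, plus strand).
miR-185-3p: aGGGGCUGgcuuuccucugguc
The matching site, CAGCCCC, occurred in 2 of the 10 3′-UTRs, those of HNF4A and SOX9, and in 21.8% of 10757 expressed genes with an annotated 3′-UTR. Both sites lie in the last exon on the plus strand (GRCh38), at chr20:44429692-44429720 in exon 10 of 10 of HNF4A and at chr17:72126299-72126327 in exon 3 of 3 of SOX9. Both are shown as the only matches found, with the site in capitals.
HNF4A: ctggctcccccCAGCCCCctaagagagca
SOX9: tgtttccctccCAGCCCCaaaccttttgt
The other 3′-UTRs searched held no match for miR-185-3p. Any part of this microRNA in the levels of the 10 genes was not tested. A match is a description of letters and no measurement of binding.

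RefSeq promoter windows (GRCh38.p14, 250 bases before to 50 bases after a start) were found for 8 of the 10 genes, 11 windows in all, and searched on both strands. The letters TTTATNG, as bound by CDX factors, occurred in 3 of the 11 windows, those of CDX2, KLF5 and ELF3, against 9.73% of 35116 promoters and 5.96% of the promoters of expressed genes. These are shown in capitals because CDX2 itself was expressed, at a level that did not differ detectably between the groups. Each match is on the opposite strand of the gene, at position -181 from the start in CDX2 (chr13:27969479-27969507, minus strand), -195 in KLF5 (chr13:73054770-73054798, plus strand) and -35 in ELF3 (chr1:202010541-202010569, plus strand).
CDX2: gaagctcttaaCAATAAAggtttgaatat
KLF5: acacacttcatCTATAAAtcaacatctaa
ELF3: caggggacacaCTATAAAgccctgagctc
In KLF5 and ELF3 the same bases also hold TATAAA, the TATA box letters, so those motifs cannot be told apart there. SOX letters (ACAANGG) were found in windows of KLF5 and EHF (12% of all promoters), KLF letters (GGGNGTGG) in the window of CEACAM5 (17.2%), and TATA letters also in that of CEACAM6 (11.5%). Neither CAAAGTC for HNF4 (3.37%) nor CGGAAGT for ETS factors (6.83%) was found in the 11 windows. The KLF4 window was rich in CpG, with 33 CpG and 69.0% G and C, against medians of 14 and 58.7% over all promoters. This was not particular to KLF4. A KLF5 window was richer still, with 37 CpG and 71.3% G and C, while the other KLF5 window held 4 CpG and 40.7% G and C.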

How the data were processed

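RNA was sequenced from 4 HCT116 libraries, 2 control and 2 si-LINC00152. Before deposition the authors normalized the reads of each library to FPKM values, 1 table per library, with Trimmomatic, TopHat, HISAT2, HTSeq, DESeq and the build GRCh38 named in the submitters' processing notes without roles or versions. The unit is not named in the files and was read from the form of the values, and depth is unknown. No count test was run, because the values are not counts. Of the symbols 28 had turned into dates and 2 were repeated.

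Values were analysed as log2(FPKM + 1) without further scaling. A gene entered the test if 2 or more libraries reached 1 FPKM. The test was limma 3.58.1 under R 4.3.3, with its variance prior following mean expression and no block, and Benjamini-Hochberg adjustment covered all 11222 genes. The fit was also run on simulated data in which libraries varied independently. Same-numbered libraries here deviated together (correlation 0.52), so that run cannot tell how the fit without a block performs on them. Intervals are 95%. With 2 libraries a group the fit has 2 residual degrees of freedom (9.53 in total after moderation), which limits precision.

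The 10 genes and all lists were chosen with earlier results of these data known. All 10 are named; of each other list, genes with an unadjusted p under 0.05 and the 3 with the highest mean FPKM are named, and epithelial and other markers as a group. LGR5 and the genes of the lists named for being at 0 in all libraries were picked after their values were seen. Positions and word sharing used GENCODE v29 (GRCh38), and promoters and the microRNA used RefSeq. Alternatives were another pseudocount, other filters, size factors, quantile normalization, a replicate block, no trend and leaving out each library.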

Additional observations from a re-analysis of the deposited data

How the results depend on the processing

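None of the 10 genes passed an adjusted p of 0.05 in limma under any alternative. Over all expressed genes the count was 2, against 1 with a pseudocount of 0.1, 0 with at least 1 FPKM in every library, 78 with the replicate block and 45 to 78 with 1 library left out. No gene of the 10 passed unadjusted p under 0.05 and a fold above 1.5; with 1 library left out the count was 0 to 1, the 1 being KLF4 without control 2. Over all genes that threshold gave 186 genes, against 242 to 546 with 1 library left out. With the replicate block the adjusted p was 0.109 for KLF4, 0.187 for ELF3 and 0.209 for SOX9, and 0 of the 10 genes passed. The block took ELF3 (limma unadjusted p = 0.0139) and SOX9 (limma unadjusted p = 0.0196) past the unadjusted threshold. It did the same for EPHB2 (0.00948), CEACAM19 (0.0303), KLF2 (0.00354) and SOX4 (0.0137). For KLF4 and KLF6, which passed without it, the limma unadjusted p with the block was 0.00351 and 0.000929. The labels give only shared numbers, and same-numbered libraries deviated together with a correlation of 0.52 across genes. With no low-value filter SOX9 (limma unadjusted p = 0.0402) and ELF3 (limma unadjusted p = 0.0370) passed the unadjusted threshold, as KLF2 did with at least 1 FPKM in every library (limma unadjusted p = 0.0493). CDX2 turned to -0.0104 with size factors and -0.0305 with quantile normalization, and FOXA3 to -0.0149 with quantile normalization. With 1 library left out, the range was -0.14 to 0.16 for CDX2, -0.15 to 0.0522 for KLF5, -0.28 to 0.0425 for EHF, -0.18 to 0.32 for HES1, -0.17 to 0.22 for FOXA3, -0.35 to 0.0592 for DPP4, -0.13 to 0.26 for BMI1, -0.10 to 0.17 for ELF4, -0.0721 to 0.43 for ELF1 and -0.20 to 0.0780 for ELF2; the cause was not tested. KLF4 ranged from -0.67 to -0.34, HNF4A from 0.0579 to 0.32, KLF2 from 0.20 to 0.81, KLF6 from 0.26 to 0.83, SOX9 from 0.26 to 0.35 and ELF3 from -0.44 to -0.27. Expressed genes numbered 7 at 0.1 FPKM, 6 at 5 FPKM and 6 with 1 FPKM in every library. Where a library was left out, the lone library of its group was assumed to vary like the other group.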
